A study of Mus musculus with 6 samples.

Results

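The genes described here encode Fc receptors and inhibitory receptors of B cells. They were chosen by name, as every probe annotated to Fcgr2b, Fcrla, Fcrl1, Fcrl5, Fcer2a, Fcmr (also written Faim3), Cd22 or Cd72. Of these 8 genes, 6 had a probe, among 16110 genes with a probe in all, and the 6 were covered by 17 of 25697 probes. Fcmr and Cd72 were not analysed here, as no probe carried their symbol or gene identifier. The RNA of 6 samples was hybridised to Illumina bead arrays, 1 array a sample. The TRAF3KO group held 3 arrays of premalignant splenic B cells of the genotype TRAF3-/-, and the control group held 3 arrays of normal splenic B cells of the mouse. Strain, age, the driver of the deletion and the relation of the controls to the TRAF3KO mice are not stated in the labels. Nothing states that each array held a separate mouse, so the p-values rest on the spread between these 6 samples, some of which may be technical. The adaptor TRAF3 holds back the non-canonical NF-kB pathway in B cells. No probe carried the symbol Traf3, so the knockout was not checked on these arrays.

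A B cell reads bound antibody through its B cell receptor, and several surface receptors damp that signal. Fcgr2b (CD32b) binds immune complexes of IgG and carries an inhibitory motif in its cytoplasmic tail that recruits the lipid phosphatase SHIP-1, and Cd22 is a lectin for sialic acid whose inhibitory motifs recruit the tyrosine phosphatase SHP-1. The Fc receptor-like proteins are relatives of the Fc receptors, and Fcrla is an unusual one that stays inside the cell. Fcer2a (CD23) is the low-affinity receptor for IgE and marks mature follicular B cells.

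On the chromosomes, members lie in clusters. Per RefSeq on GRCm38.p6, Fcrla (chr1:170917594-170932216) and Fcgr2b (chr1:170960558-170976071) lie 28.3 kb apart, and Fcrl1 (chr3:87376353-87403967) and Fcrl5 (chr3:87435777-87500678) lie 31.8 kb apart. The bases before the start sites of Fcgr2b and Fcrla are shown because these were the members that fell. They are RefSeq sequences of 250 bases on the minus strand of GRCm38.p6, at chr1:170976072-170976321 for Fcgr2b and chr1:170927584-170927833 for Fcrla, and the listed start of Fcrla lies inside the span of the gene.
Fcgr2b: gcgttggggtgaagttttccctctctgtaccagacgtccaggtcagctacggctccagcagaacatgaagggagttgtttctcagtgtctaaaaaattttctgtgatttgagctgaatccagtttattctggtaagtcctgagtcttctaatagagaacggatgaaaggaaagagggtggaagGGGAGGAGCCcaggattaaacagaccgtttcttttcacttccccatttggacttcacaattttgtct
Fcrla: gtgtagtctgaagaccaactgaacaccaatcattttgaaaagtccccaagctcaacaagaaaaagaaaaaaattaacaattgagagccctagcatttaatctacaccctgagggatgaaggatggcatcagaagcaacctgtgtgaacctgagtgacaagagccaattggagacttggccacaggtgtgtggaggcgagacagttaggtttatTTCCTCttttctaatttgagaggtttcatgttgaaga
Capitals mark matches to 4 motifs searched on both strands. They were an NF-kB-like motif (GGGA and CC parted by any 4 bases), the octamer (ATGCAAAT), an EBF-like motif (CCCNNGGG) and the core of the PU-box (GAGGAA). Fcgr2b held 1 match, to the NF-kB-like motif, 67 bases before the start, and Fcrla held 1 match, to the PU-box core on the opposite strand, 37 bases before the start. No matches overlapped in these windows. Of 32851 promoter windows of this length, 17.6% held the NF-kB-like motif, 1.6% the octamer, 11.8% the EBF-like motif and 23.3% the PU-box core, so both matches are of common kinds. All 8 listed genes had a RefSeq entry of this kind, and Fcrl1, which was not called, held 2 matches to the PU-box core.

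All 17 member probes passed the filter on dim probes (above the 40th percentile of the array on at least 3 arrays). In the TRAF3KO cells 2 of the 6 measured members were lower, Fcgr2b and Fcrla, and 0 were higher, by limma at an adjusted p under 0.05. By the same rule 2.14% of all 10304 genes tested were lower and 2.3% higher, 4.44% in all. Of the 17 member probes 5 were called lower and 0 higher, where 1.97% of all kept probes were called lower and 4.07% in either direction. That share depended on brightness. In either direction it was 1.09% of kept probes with a mean of log2 8 or less and 5.18% from 8 to 10. It was 10.6% from 12 to 14, 13.5% from 14 to 15 and 3.6% above 15. The brightest probes of Fcgr2b, Cd22 and Fcrl1 lay from 12 to 14. That of Fcer2a lay from 14 to 15, that of Fcrla above 15 and that of Fcrl5 from 8 to 10. At an unadjusted p under 0.05, 4 of the 6 members differed, as did 16.9% of all genes tested. The groups did not overlap for 3 of the 6, which were Fcgr2b, Fcrla and Cd22, all lower in TRAF3KO, while 11.4% of all genes tested had groups that did not overlap in that direction, 11% in the other and 22.4% in either. The median difference of the 6 was -0.11 on the log2 scale, and that of all genes tested was 0.0042.

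**Figure D1:**
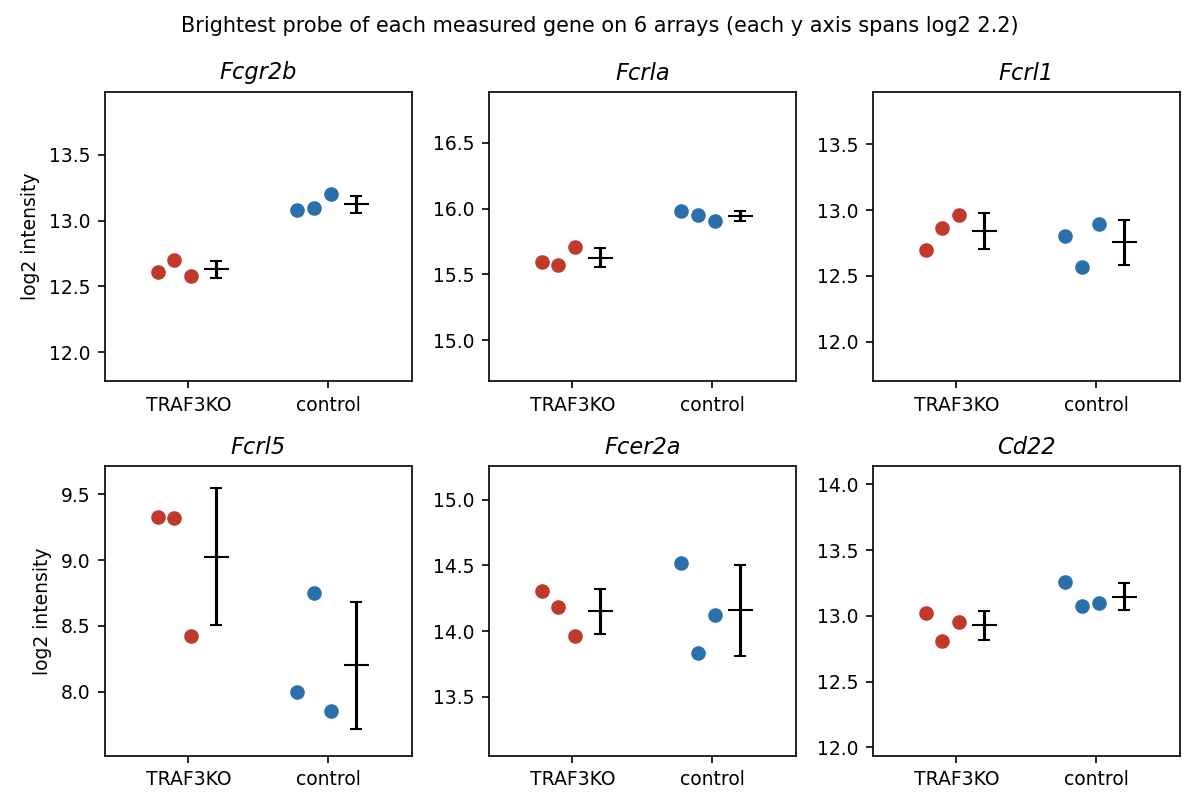
The log2 intensity of the brightest probe of each of the 6 measured genes is plotted for the 3 TRAF3KO arrays (left, red) and the 3 control arrays (right, blue), with black bars for the group mean and SD (n = 3 each). Each vertical axis spans the same log2 range. The points of Fcgr2b, Fcrla and Cd22 do not overlap between groups, and those of Fcrl1, Fcrl5 and Fcer2a do.

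Fcgr2b, the inhibitory IgG receptor, was lower on every TRAF3KO array than on every control array. Its brightest probe read 12.61, 12.70 and 12.58 in TRAF3KO, against 13.08, 13.09 and 13.20 in control (log2 intensity, replicates 1 to 3). The groups were separated by a gap of 0.37, while the SD within each was 0.06 in TRAF3KO and 0.07 in control. The difference was -0.49 ± 0.07 (log2, SE), with a 95% interval of -0.65 to -0.34 and an adjusted p of 0.0026 by limma. This is a level in TRAF3KO of 0.711 times that in control. On the linear scale the probe read 6244, 6671 and 6126 in TRAF3KO, against 8641, 8745 and 9405 in control.

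The other probes of Fcgr2b are annotated to another of its transcript records and differed in the same direction. The second brightest read 10.32, 10.60 and 10.65 in TRAF3KO, against 11.05, 10.79 and 11.22 in control, again with no overlap. Its difference of -0.50 ± 0.13 was close to that of the brightest probe, but it was not called (adjusted p = 0.057). The dimmest probe, at 9.15, 9.54 and 9.17 in TRAF3KO against 9.71, 9.76 and 9.52 in control, overlapped between groups and differed by -0.37 ± 0.14 (adjusted p = 0.20). The call of Fcgr2b on its brightest probe held in each of the 6 leave-one-out fits, made without 1 array at a time (differences from -0.53 to -0.45), and was lost in a fit without a trend in the variance model (adjusted p = 0.11) and without variance moderation (adjusted p = 0.079). Fcgr2b and the activating receptor Fcgr3 are closely alike in their extracellular parts. The probe of Fcgr3 lay near the floor of the arrays, at 0, 0 and 5.31 in TRAF3KO against 5.64, 5.14 and 1.32 in control, and cross-hybridisation between them was not tested.

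Fcrla, the intracellular member, was lower in TRAF3KO on all 4 of its probes, and each was called. The brightest read 15.60, 15.57 and 15.71 in TRAF3KO, against 15.98, 15.95 and 15.90 in control, and differed by -0.32 ± 0.06 (adjusted p = 0.011). The dimmest read 13.10, 13.17 and 13.27 in TRAF3KO, against 13.96, 13.85 and 14.03 in control, and differed by -0.76 ± 0.07 (adjusted p = 2.4e-04), a level in TRAF3KO of 0.590 times that in control. The groups did not overlap on any of the 4 probes, where 11.2% of all kept probes were lower without overlap.

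The size of the Fcrla difference was larger on dimmer probes. From the brightest to the dimmest, at mean log2 intensities of 15.79, 15.33, 14.74 and 13.56, the differences were -0.32, -0.58, -0.68 and -0.76. The brightest probe lay near the highest value of the arrays, 16.15. Over the 139 kept probes with a mean above 15 the median absolute difference was 0.031, against 0.13 over the 200 probes from 14 to 15 and 0.11 over the 1434 from 12 to 14. Whether the top of the scale shortened the difference of the brightest probe was not tested. The probes of Fcgr2b did not show this order, with differences of -0.49, -0.50 and -0.37 from the brightest to the dimmest. At means of 12.88, 10.77 and 9.47 they were all dimmer than the dimmest probe of Fcrla, so they do not bear on the top of the scale. On its brightest probe the call of Fcrla was lost in 3 of the 6 leave-one-out fits, at adjusted p-values of 0.052 without TRAF3KO replicate 1, 0.0503 without TRAF3KO replicate 2 and 0.055 without control replicate 1. It was also lost with no filter on dim probes (0.28), with no trend (0.21) and without variance moderation (0.12). On its dimmest probe it held in all 6 (differences from -0.81 to -0.72), but was lost with no trend (adjusted p = 0.063) and without moderation (adjusted p = 0.065). With the mean of the 4 probes Fcrla differed by -0.59 ± 0.07 (adjusted p = 0.0023).

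**Figure D2:**
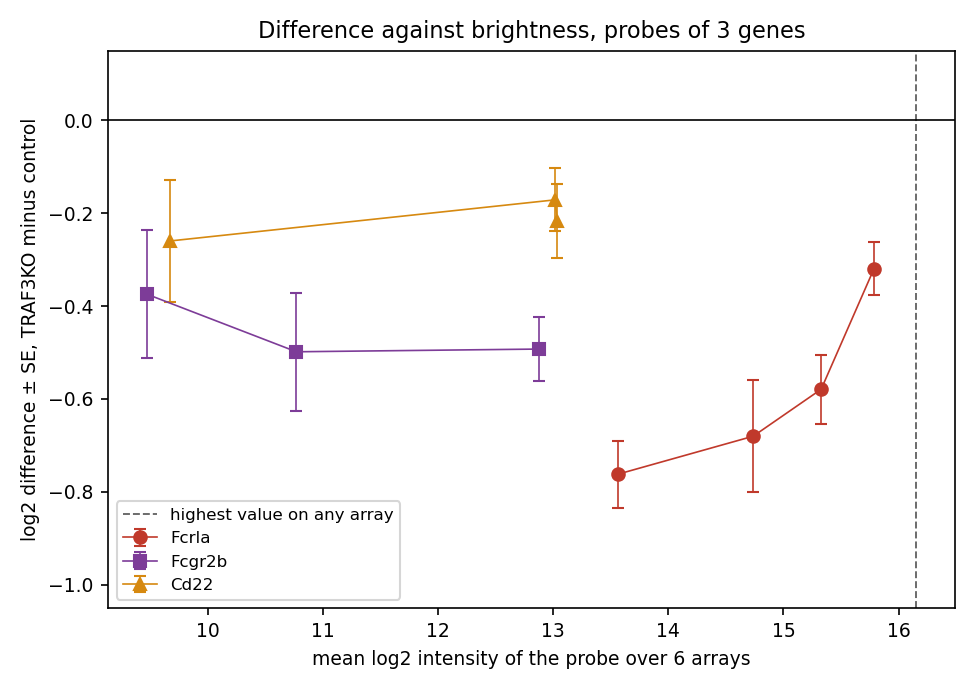
The log2 difference between TRAF3KO and control (± SE) is plotted against the mean log2 intensity over 6 arrays for each probe of Fcrla, Fcgr2b and Cd22, with lines joining the probes of a gene. The dashed line marks the highest value on any array, 16.15. The probes of Fcrla run from -0.32 at the bright end to -0.76 at the dim end, and the probes of Fcgr2b lie between -0.50 and -0.37.

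Cd22, the sialic acid lectin, was slightly lower in TRAF3KO on all 3 probes, and none was called. The brightest read 13.02, 12.81 and 12.95 in TRAF3KO, against 13.26, 13.08 and 13.10 in control, so that a gap of 0.051 parted the groups. It differed by -0.22 ± 0.08, with a 95% interval of -0.39 to -0.04 (adjusted p = 0.20 by limma). The second probe differed by -0.17 ± 0.07, also without overlap, and the dimmest by -0.26 ± 0.13, with overlap. The intervals of the brightest probes of Cd22 and Fcgr2b overlapped, from -0.39 to -0.34.

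Fcrl1, a receptor of B cells that promotes activation, was not called and its probes differed in sign. The brightest read 12.70, 12.86 and 12.97 in TRAF3KO, against 12.80, 12.57 and 12.90 in control, and the groups overlapped. The difference was 0.09 ± 0.10 on this probe (95% interval -0.13 to 0.30, adjusted p = 0.72) and -0.09 ± 0.08 on the second. The dimmest probe had a mean of 4.86, and its interval of -1.45 to 1.56 bounds little. Without control replicate 2 the difference of the brightest probe was -0.0090.

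Fcrl5, which in the mouse is known from marginal zone and B-1 cells, was measured by 1 probe and varied most between arrays among the 6 brightest probes. It read 9.33, 9.32 and 8.43 in TRAF3KO, against 8.002, 8.75 and 7.85 in control. The groups overlapped, because TRAF3KO replicate 3 lay below control replicate 2. The difference was 0.82 ± 0.28 (95% interval 0.20 to 1.45), which did not pass the adjustment (adjusted p = 0.16 by limma). Without TRAF3KO replicate 3 it was 1.12 ± 0.25 (adjusted p = 0.039). The SD of this gene was 0.52 in TRAF3KO and 0.48 in control, the largest among the 6 brightest probes in both groups.

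Fcer2a, the IgE receptor CD23, had nearly equal means in the groups. The brightest probe read 14.30, 14.18 and 13.96 in TRAF3KO, against 14.52, 13.83 and 14.12 in control, and differed by -0.01 ± 0.15 (95% interval -0.33 to 0.31, adjusted p = 0.99). The other 2 probes differed by 0.16 ± 0.12 and 0.18 ± 0.12 and were not called. Control replicate 2 was the lowest of the 6 arrays on all 3 probes of Fcer2a, at 13.83, 12.29 and 11.87.

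**Figure D3:**
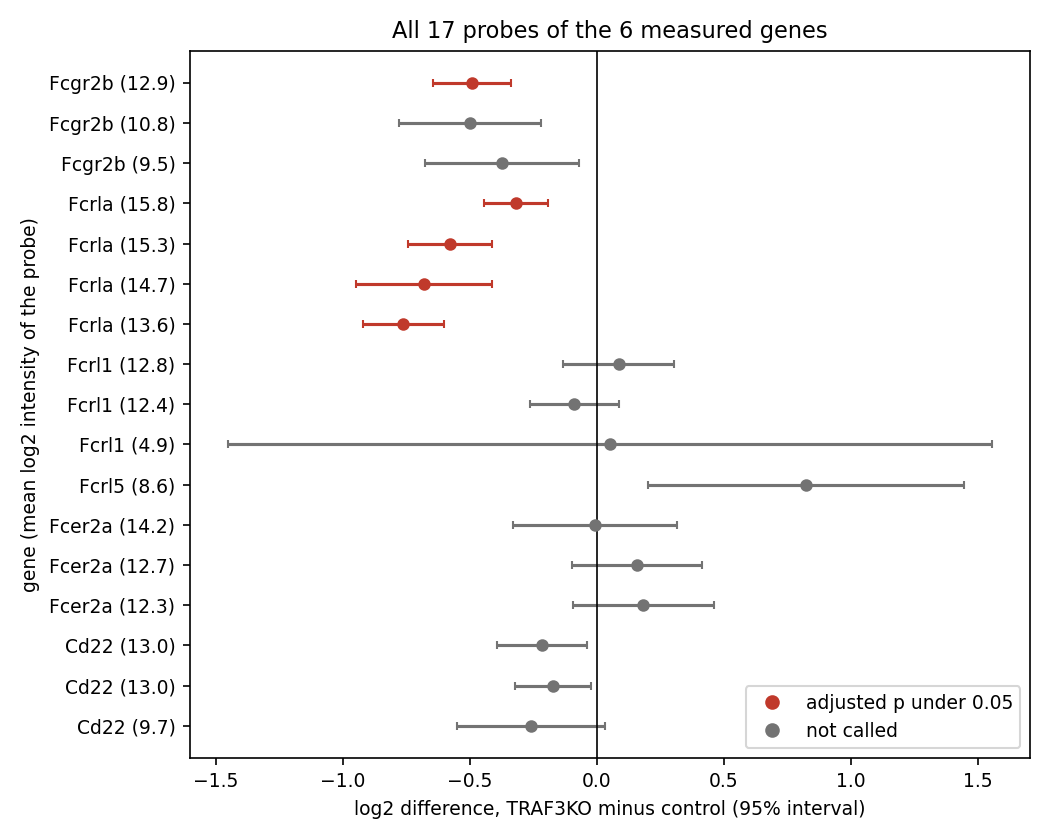
The log2 difference between TRAF3KO and control is plotted with its 95% interval for each of the 17 probes, grouped by gene, with the mean log2 intensity of the probe in brackets. Red points passed an adjusted p of 0.05 and grey points did not. The 5 called probes are 1 of Fcgr2b and 4 of Fcrla, and the probes of Fcrl1 and Fcer2a lie on both sides of 0.

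The differences of the members were compared with each other within arrays, over the 15 pairs of the 6 brightest probes. With 3 arrays a group an exact two-sided permutation test over the 20 arrangements cannot go below 0.1, and after adjustment over the 15 pairs the smallest value was 0.25. The within-array difference between a pair parted the groups without overlap for 3 of the 15 pairs. A share over pairs of all genes was not computed, and among single genes tested 22.4% had no overlap. Each of the 3 pairs holds Fcgr2b or Fcrla, which parted the groups alone. The pairs were Fcgr2b against Fcrl1 (-0.58), Fcgr2b against Fcrl5 (-1.32) and Fcrl1 against Fcrla (0.41), each given as the change of the first gene minus that of the second. The order of the changes among the members is therefore a description of these arrays.

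B cell genes gave a level against which the members could be read. Cd79a and Cd79b, the signalling chains of the B cell receptor, and Ms4a1 (CD20) averaged 14.58 ± 0.03 in TRAF3KO and 14.58 ± 0.04 in control (SD, n = 3 each). Cd79a and Cd79b lie near the top of the scale, but Ms4a1, at 11.57, 11.84 and 11.71 in TRAF3KO against 11.68, 11.79 and 11.59 in control, does not, and it differed by 0.02 ± 0.09. Relative to the mean of these 3 genes on the same array, Fcgr2b differed by -0.50 ± 0.07 (adjusted p = 0.0027 by limma) and Fcrla by -0.32 ± 0.07 (adjusted p = 0.026). That mean differed by 0.0036 between the groups, so its subtraction could move these differences little. In RNA of many cells, fewer cells of a type and less RNA per cell cannot be told apart.

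Macrophages also express Fcgr2b, and markers of other cells were measured on the same arrays. Of the 10 monocyte and macrophage markers 8 had a probe, and their summed linear intensity was 1200 to 2049 in TRAF3KO, against 1830 to 5085 in control. Control replicates 1 and 3 were at 4016 and 5085. Control replicate 2, at 1830, lay within the TRAF3KO range. None of the 8 was at the floor of 0 on all arrays and 5 were on some. Of the 6 tested, 2 were lower, Lyz2 and C1qc, and the calls held in 1 and 2 of the 6 leave-one-out fits. Lyz2 (lysozyme) read 9.16, 8.95 and 8.52 in TRAF3KO, against 10.60, 9.44 and 11.42 in control, a difference of -1.61 ± 0.38 (adjusted p = 0.041). C1qc (a complement subunit) read 5.07, 2.17 and 0 in TRAF3KO, against 8.66, 5.396 and 8.42 in control, and its difference of -5.08 ± 1.24 (adjusted p = 0.047) rests on values near the floor, being -2.05 with an offset of 50 and -3.16 with low values raised to the 40th percentile. The brightest marker of that list, Adgre1, was at 10.27, 10.33 and 9.59 in TRAF3KO, against 10.12, 9.96 and 9.96 in control. The part of macrophage RNA in the difference of Fcgr2b was not tested.

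Markers of further cells differed in size and direction. The summed level of the B cell markers was 169698 to 185081 in TRAF3KO, against 179334 to 180170 in control. Erythroid markers were bright, at 62908 to 76346 in TRAF3KO against 76067 to 78625 in control, and 1 of 3 was called, Car2 at -1.03 ± 0.23 (adjusted p = 0.033 by limma). The lowest erythroid sum was that of TRAF3KO replicate 1. The B cell sum came mostly from Cd79a and Cd79b and the erythroid sum from Hba-a1, all near the highest value of the arrays, 16.15. Whether the top of the scale evened out these sums was not tested. Of 3 plasma cell markers tested, Sdc1 (CD138) was lower by limma (-2.22 ± 0.21, adjusted p = 2.4e-04) and the transcription factor gene Xbp1 higher (0.48 ± 0.08, adjusted p = 0.0094). Of 4 dendritic cell markers tested 1 was called, Zbtb46, at 6.35, 6.51 and 7.02 in TRAF3KO and listed at 0 on all 3 control arrays (adjusted p = 0.024), while Itgax was at 0 on all 6 arrays. T cell, neutrophil and NK cell markers had none called of 5, 3 and 4 tested, and Cd8a, Retnlg and Ncr1, which were not tested, were at 0 on all 6 arrays. The dendritic, T cell, neutrophil and NK cell lists summed to at most 359, 438, 144 and 3306 in TRAF3KO and 250, 456, 324 and 3950 in control. The NK cell sum came mostly from Prf1, at 11.38, 11.66 and 11.53 in TRAF3KO against 11.53, 11.86 and 11.18 in control. The part of these markers in the values of the members was not tested.

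Over the kept probes, arrays correlated more closely within a group than between groups, with Pearson's r of 0.922 to 0.930 within TRAF3KO, 0.920 to 0.925 within control and 0.910 to 0.918 between them (across probes, which are not independent replicates). By Xist and Eif2s3y, TRAF3KO replicate 1 and control replicates 1 and 3 came from males and the other 3 arrays from females. The labels give no sex. Within females, with 2 TRAF3KO arrays and 1 control array, Fcgr2b differed by -0.45 and Fcrla by -0.31, and within males, with 1 TRAF3KO array and 2 control arrays, by -0.53 and -0.34. Fcrl5 differed by 0.12 within females and 1.40 within males, Fcrl1 by 0.35 and -0.15, Fcer2a by 0.24 and -0.02, and Cd22 by -0.19 and -0.16. These within-sex values have too few arrays for a test. With inferred sex as a block Fcgr2b differed by -0.49 ± 0.08 (adjusted p = 0.0086 by limma), Fcrla by -0.33 ± 0.06 (adjusted p = 0.022) and Fcrl5 by 0.76 ± 0.31 (adjusted p = 0.28). In that fit the macrophage markers Lyz2 and C1qc differed by -1.28 ± 0.28 (adjusted p = 0.044) and -3.89 ± 0.77 (adjusted p = 0.028).

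The ligands and partners of the members included genes that changed. Of 6 such genes, 2 rose and 1 fell, which is 50% called, against 4.44% of all genes tested. The list was short and was chosen with earlier results of these data known, so its share is a description and not a test. Sema4d (CD100), the ligand of Cd72, rose to 10.97, 11.09 and 11.07 in TRAF3KO, against 10.66, 10.43 and 10.55 in control, a difference of 0.50 ± 0.09 (adjusted p = 0.012). Cmah, the enzyme that makes the glycolyl form of sialic acid preferred by mouse Cd22, fell to 10.82, 10.87 and 10.75 in TRAF3KO, against 11.40, 11.49 and 11.60 in control, a difference of -0.68 ± 0.09 (adjusted p = 0.0013). The groups did not overlap for either gene.

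Cr2 (CD21), a complement receptor that in human also binds CD23, was the other gene of that list to rise, by 0.92 ± 0.18 (adjusted p = 0.019). It read 9.06, 8.74 and 8.997 in TRAF3KO, against 7.67, 8.28 and 8.07 in control. Its call was lost in 4 of the 6 leave-one-out fits, and when inferred sex was a block (adjusted p = 0.051). St6gal1, the sialyltransferase that builds the linkage Cd22 recognises, differed by 0.15 ± 0.07 (adjusted p = 0.32). Sema4d lost its call without TRAF3KO replicate 2 (adjusted p = 0.056), while Cmah kept it in all 6 such fits.

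The enzymes and adaptors through which these receptors signal were mostly not called. Of 15 tested genes of inhibitory signalling, 1 rose and 1 fell, with a median difference of -0.05. Grap, an adaptor related to Grb2, rose to 11.96, 11.995 and 12.26 in TRAF3KO, against 11.18, 10.94 and 11.05 in control, a difference of 1.02 ± 0.10 (adjusted p = 3.3e-04). Sla, an adaptor that promotes the turnover of antigen receptors, fell to 13.08, 12.90 and 12.94 in TRAF3KO, against 13.40, 13.30 and 13.45 in control, a difference of -0.41 ± 0.07 (adjusted p = 0.010, and 0.0501 without control replicate 1). Inpp5d, which encodes SHIP-1, differed by -0.09 ± 0.10 (adjusted p = 0.71), and Ptpn6, which encodes SHP-1, by 0.04 ± 0.08 (adjusted p = 0.84). The lowest difference of the list, -1.38 ± 0.73 for the adaptor Dok2, came from TRAF3KO replicate 3 at 7.90, where TRAF3KO replicates 1 and 2 read 11.53 and 11.42 and control arrays 11.49 to 11.75; it was not called (adjusted p = 0.40), and without that array it was -0.18.

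**Figure D4:**
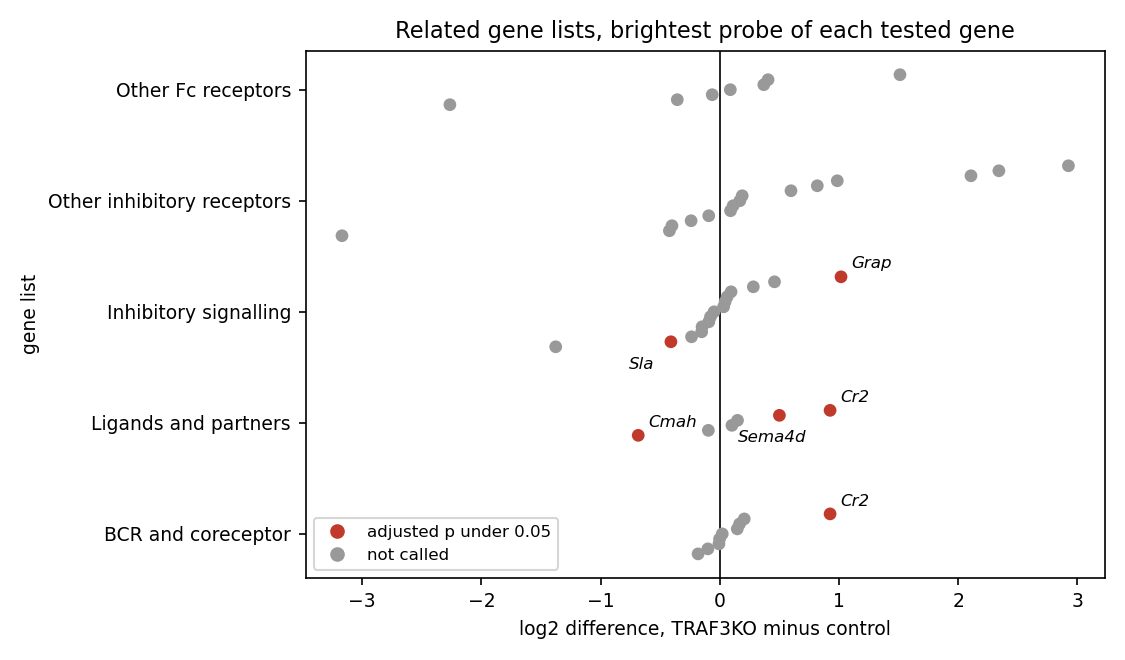
The log2 difference between TRAF3KO and control is plotted for the brightest probe of each tested gene in 5 related lists, 1 point a gene. Red points, with names, passed an adjusted p of 0.05 and grey points did not. Called genes are Grap and Sla in inhibitory signalling, Sema4d, Cmah and Cr2 among ligands and partners, and Cr2 again in the B cell receptor list.

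Other Fc receptors and other inhibitory receptors held 13 and 22 listed genes, of which 11 and 19 had a probe. Siglecg and Pirb were among those without one. By limma 0 of 7 and 0 of 15 tested members were called, against 4.44% of all genes tested. Most of those tested had a mean of log2 8 or less, where 1.09% of kept probes were called. In each list 2 members were at an unadjusted p under 0.05, a threshold that 16.9% of all genes tested passed. Among the other Fc receptors these were Fcgr4, an activating receptor, at 1.51 ± 0.48 (adjusted p = 0.13), and Fcgrt, the neonatal Fc receptor, at -0.36 ± 0.12 (adjusted p = 0.17). Among the inhibitory receptors they were Lilrb4a at 2.11 ± 0.56 (adjusted p = 0.068) and Pecam1 (CD31) at -0.24 ± 0.09 (adjusted p = 0.19). Lilrb4a was dim, at 6.59, 6.06 and 6.52 in TRAF3KO against 5.04, 3.39 and 4.42 in control, and passed with an offset of 50 (0.92, adjusted p = 0.032). The differences of the inhibitory receptors ranged from -3.17 for Cd300a to 2.92 for Lag3, both of which lay at 0 on some arrays. Btla, the brightest of them, differed by 0.11 ± 0.09. In the list of the B cell receptor and its coreceptor, Cr2 was the 1 called gene of 9, and the lowest difference was that of the kinase Btk, at -0.18 ± 0.08 (adjusted p = 0.29).

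Neighbouring genes were measured where they had a probe. Beside Fcgr2b and Fcrla, among 3 annotated genes on each side, Fcgr4 was the 1 tested neighbour and was not called. Beside Fcrl1 and Fcrl5 it was the transcription factor gene Etv3, at -0.10 ± 0.12 (adjusted p = 0.72).

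The genes whose pattern over the 6 arrays lay nearest to that of Fcgr2b, by the mean absolute difference of values centred on each gene's own mean, were Prxl2c (0.031), Ints4 (0.040) and Gucd1 (0.048), where the median gene lay at 0.32. Nearest to Fcrla were Abhd11 (0.018), Traf3ip2 (0.024), which encodes the adaptor Act1, and Epc1 (0.025), where the median gene lay at 0.26. Their differences were -0.49 for Prxl2c, -0.44 for Ints4, -0.49 for Gucd1, -0.33 for Abhd11, -0.34 for Traf3ip2 and -0.30 for Epc1. Genes picked for a near pattern must differ by about as much as the member, so these values describe the choice and test nothing. A shared regulation was not tested. Abhd11 was not called (adjusted p = 0.051). Prxl2c, Traf3ip2 and Epc1 kept their calls in 0 of the 6 leave-one-out fits.

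Subset markers of splenic B cells differed in the same samples. Of 7 tested marginal zone markers 4 rose (Asb2, Cd9, Cr2 and Marcks) and 0 fell. Of 6 B-1 markers 3 rose (Cd80, Pdcd1lg2 and Tbc1d9) and 0 fell. Of 6 follicular markers 1 rose (Cxcr5) and 3 fell (Itgb7, Klf2 and S1pr4), with Fcer2a among the follicular markers not called. Of all genes tested 2.3% rose and 2.14% fell, and these lists were chosen with earlier results of these data known. Median differences of the 3 lists were 0.61, 0.62 and -0.42. Summed over each list, marginal zone markers were at 14325 to 14728 in TRAF3KO, against 10120 to 11113 in control, and follicular markers at 54260 to 60458 in TRAF3KO, against 58654 to 74039 in control. The B-1 markers summed to 7635.5 to 9377.1 in TRAF3KO, against 6424 to 7189.6 in control. This B-1 sum came mostly from Ptpn22, which was not called (0.28 ± 0.09, adjusted p = 0.13 by limma). Also not called were Cd5, which lay at 0 on some arrays, and Spn, at -0.47 ± 0.44. The follicular sum includes the member Fcer2a itself, and the marginal zone list and sum include Cr2, which is 1 of the 4 that rose. The part of these markers in the values of Fcrl5 and Fcgr2b, or of the other markers in that of Cr2, was not tested.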

How the data were processed

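RNA of 6 arrays was compared, 3 TRAF3KO and 3 control. The authors deposited log2 intensities. The submitters' processing notes name BeadStudio 3.2.3 but not what it did. Background correction, normalisation and the origin of the floor at 0 are not given in the sources used. Array medians differed by at most 0.0071, so values were used as deposited. Of the probes, 23141 had 1 gene symbol in the platform annotation, 0 several and 2556 none.

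Probes above the 40th percentile of their array (a linear intensity of 15.5 to 15.7) on at least 3 arrays were kept, which left 15657. The fit used limma 3.58.1 in R 4.3.3, with lmFit on group alone and a trended eBayes, and Benjamini-Hochberg adjustment ran over all kept probes. The brightest kept probe stood for a gene. The steps were tested on simulated data. The number of arrays limits the precision. The members and gene lists were chosen with earlier results of these data known. All members were named, with the called genes and range ends of the lists, the 3 nearest patterns of each called member and measured neighbours. A few further genes that bear on a member (Ms4a1, Btla, Lilrb4a, Pecam1, Fcgrt, St6gal1, Inpp5d, Ptpn6 and the macrophage markers) were named after their values were seen. Alternatives were another normalisation, other filters, variance models and array weights, blocks, the mean of probes, offsets, 3 subtracted B cell genes and leaving out each array. Of the B cell genes planned for subtraction, 1 is not reported here.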

Additional observations from a re-analysis of the deposited data

How the results depend on the processing

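The 6 measured members were refitted under 19 alternatives. Fcgr2b and Fcrla were lower and Fcrl5 higher in all of them, Fcgr2b between -0.53 and -0.45, Fcrla between -0.59 and -0.29 and Fcrl5 between 0.65 and 1.12, and Cd22 was lower but not called in any. The count of members called lower was 2 in the planned fit. It was 1 (Fcgr2b) with no filter on dim probes, 0 with no trend, 0 without variance moderation, and 1 to 2 when 1 array was left out. The count called higher was 0, and 1 with the replicate number as a block, and 0 to 1 when 1 array was left out. The count of all genes called was 457, and 114 with no filter, 65 with no trend, 37 without moderation and 227 to 382 when 1 array was left out. It was higher in other fits, at 562 with robust variance moderation, 527 with an offset of 50 and 526 with a filter at the 60th percentile. Fits that leave out an array have fewer samples and the fit with no filter tests 16110 genes, while the cause of the other changes was not tested. Differences near 0 changed sign. Fcer2a was at 0.11 with inferred sex as a block, 0.11 with the mean of probes and ran from -0.17 to 0.17 when 1 array was left out (0.084 without TRAF3KO replicate 3 and 0.17 without control replicate 1). Fcrl1 ran from -0.0090 (without control replicate 2) to 0.16. Ms4a1 was at -0.038 with inferred sex as a block and ran from -0.046 (without TRAF3KO replicate 2) to 0.088, and Ptpn6 was at -0.0051 with the mean of probes and ran from -0.037 (without control replicate 2) to 0.14.

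Arrays of the same replicate number in both groups deviated from their group means with correlations of 0.044, 0.043 and 0.030, so the numbers were not taken to pair the samples. Every array correlated best with the array of its own number in the other group, a hint from the data and not the design. With the replicate block 1 member was called higher, Fcrl5 (0.82, adjusted p = 0.048), and Fcgr2b and Fcrla were still called (adjusted p = 0.0072 and 0.022). Dim probes limit what can be seen: the median SE was 0.54 for kept probes with a mean of log2 8 or less and 0.080 from 12 to 14.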
